A study of Homo sapiens with 4 samples.

Results

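Genes of the hypoxia response and of glycolysis were examined as a group of 37 genes among the 19775 genes that the array table held under exactly 1 gene symbol. The members were chosen by gene symbol and comprised 20 targets of the hypoxia-inducible factors (HIF) and 17 enzymes of the core glycolytic chain, from hexokinase to lactate dehydrogenase. A probe set was available for 36 of the 37, and the carbonic anhydrase CA9 was not analysed here. Of these 36, 35 had a mean signal of at least 69.4, the median over all probe sets, and were tested. The exception was the neuronal-type glucose transporter SLC2A3, whose brightest probe set with 1 symbol lay between 1.25 and 19.7 on the 4 arrays. Probe sets annotated to both SLC2A3 and SLC2A14 were not used, so its level was not settled here.

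The cells were SKOV3, an established human ovarian carcinoma line. In the treated group, 2 arrays held RNA from SKOV3 cells given rhSTIP1, read here as recombinant human STIP1, a cochaperone of HSP70 and HSP90. In the control group, 2 arrays held RNA from SKOV3 cells that received none. The dose and the duration were not given in the sources used here. Separate cultures were not stated either, and p-values then reflect only how far these arrays spread, which may be technical.

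HIF is a transcription factor whose alpha subunit is hydroxylated by the EGLN enzymes when oxygen is present, bound by the VHL ubiquitin ligase and degraded. When oxygen is low the subunit persists, pairs with ARNT and raises transcription of genes for angiogenesis, acid export, mitophagy, collagen modification and glucose use. Most enzymes of glycolysis are also HIF targets, and tumour cells in culture express many of them at high levels with oxygen present.

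Signals were made with MAS5, which scales each array to a common target. Median signals were 69.0 on both rhSTIP1 arrays, against 66.0 and 79.2 on control arrays 1 and 2. The 3′ to 5′ signal ratio of the ACTB control probe sets, which is higher when RNA is degraded, was 2.62 and 8.79 on rhSTIP1 arrays 1 and 2, against 2.74 and 2.45 on control arrays 1 and 2. The same ratio for GAPDH, itself a member of the glycolytic list, was 0.992 and 1.32 on rhSTIP1 arrays 1 and 2, against 0.987 and 1.16 on control arrays 1 and 2. It too was highest on rhSTIP1 array 2, and it was higher on array 2 than on array 1 in both groups. Of 10 marker genes of ovarian carcinoma epithelium, 9 reached the level at which genes were tested, ERBB2 among them at 9641 to 15302, and MUC16 lay at 14.2 or less. Of the markers of other cell types, 4 of 6 for fibroblasts, 2 of 4 for mesothelium, 1 of 5 for endothelium and 0 of 5 for leukocytes reached that level. None was at 0. CD68, also on the leukocyte list, had no probe set with 1 symbol and was left out. The summed marker signals on rhSTIP1 arrays 1 and 2 and control arrays 1 and 2 were 664, 516, 621 and 433 for fibroblasts, 350.9, 256.2, 520.7 and 419.3 for mesothelium, 361, 227, 232 and 234 for endothelium, 94.95, 252, 151 and 112 for leukocytes, and 49538, 50141, 47448 and 45369 for the carcinoma list. The mesothelial sum was lower on both rhSTIP1 arrays than on either control. The carcinoma sum was higher on both. The part of these other transcripts in the values below was not tested.

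The sequences upstream of 6 members are shown because these members carried the main patterns of the data. For ENO2, ADM, BNIP3, ANGPTL4 and CA12 the 2 arrays of a group lay furthest apart in both groups at once, and PFKFB4 was the member that was lower with rhSTIP1 by at least 1.5-fold without overlap of the arrays. Each is the 250 bases before the annotated start, read 5′ to 3′ on the strand of the gene from RefSeq sequence of the GRCh38.p14 assembly. Capitals mark the core of the HIF response element, searched as ACGTG and GCGTG on both strands.
ENO2 (chr12:6914330-6914579, plus strand): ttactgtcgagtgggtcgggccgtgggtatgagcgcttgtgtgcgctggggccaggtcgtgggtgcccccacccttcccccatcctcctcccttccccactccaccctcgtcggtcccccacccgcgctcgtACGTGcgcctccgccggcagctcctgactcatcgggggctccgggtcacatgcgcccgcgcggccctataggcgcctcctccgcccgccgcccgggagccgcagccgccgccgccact
ADM (chr11:10304823-10305072, plus strand): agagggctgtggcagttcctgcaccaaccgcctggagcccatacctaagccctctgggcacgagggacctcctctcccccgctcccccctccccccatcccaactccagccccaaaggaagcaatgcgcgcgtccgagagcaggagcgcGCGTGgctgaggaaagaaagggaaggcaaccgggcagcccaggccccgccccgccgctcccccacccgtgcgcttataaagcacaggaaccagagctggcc
BNIP3 (chr10:131981924-131982173, minus strand): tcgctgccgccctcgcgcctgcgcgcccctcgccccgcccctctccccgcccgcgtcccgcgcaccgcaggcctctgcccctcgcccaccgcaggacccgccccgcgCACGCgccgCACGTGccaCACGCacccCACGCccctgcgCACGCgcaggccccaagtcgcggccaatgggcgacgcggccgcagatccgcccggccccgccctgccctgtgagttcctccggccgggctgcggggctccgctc
ANGPTL4 (chr19:8363905-8364154, plus strand): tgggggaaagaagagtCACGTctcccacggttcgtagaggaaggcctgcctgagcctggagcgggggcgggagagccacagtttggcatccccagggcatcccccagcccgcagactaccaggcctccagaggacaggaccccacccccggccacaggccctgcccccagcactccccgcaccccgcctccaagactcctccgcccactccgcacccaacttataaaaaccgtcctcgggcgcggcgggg
CA12 (chr15:63381847-63382096, minus strand): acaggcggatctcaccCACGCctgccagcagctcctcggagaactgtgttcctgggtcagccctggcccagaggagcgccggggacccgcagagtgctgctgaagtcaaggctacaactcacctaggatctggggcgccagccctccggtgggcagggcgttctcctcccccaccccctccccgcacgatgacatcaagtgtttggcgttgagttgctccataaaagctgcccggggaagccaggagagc
PFKFB4 (chr3:48556804-48557053, minus strand): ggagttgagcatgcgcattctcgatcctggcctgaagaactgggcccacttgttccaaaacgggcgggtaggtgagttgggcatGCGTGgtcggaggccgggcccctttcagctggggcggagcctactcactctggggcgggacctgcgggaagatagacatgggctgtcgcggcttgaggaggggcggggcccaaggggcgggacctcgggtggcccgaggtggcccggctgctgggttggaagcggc

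Of the 33 members with an entry in the RefSeq promoter table, 27 (81.8%) held the core in at least 1 of their upstream windows, against 47.4% of the 27305 genes in that table. Counted by window, several of which can belong to 1 gene, it was 36 of 58 (62.1%) for the members and 43.2% for all 35116 windows. By gene, the core was present for 13 of 16 HIF targets and 14 of 17 core enzymes, and by window in 17 of 21 (81.0%) and 19 of 37 (51.4%). In ENO2 it began 118 bases before the start, in ADM 101, in PFKFB4 166, and in both ANGPTL4 and CA12 234. BNIP3 held 6 matches between 143 and 104 bases before the start, 2 of which overlap in the palindrome CACGTG. That palindrome, also bound by MYC and USF proteins, stood in 8 of the 58 member windows (13.8%) and in 6.34% of all windows. Such a match describes the letters of the window and does not show that a factor binds there.

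With rhSTIP1 most glycolytic enzymes had signals close to those of the controls, and the HIF targets scattered more widely. Of 18 tested HIF targets, 14 had a log2 fold change above 0 and 4 below, with a median of 0.25. Of 17 core enzymes, 7 lay above 0 and 10 below, with a median of −0.03. The median over all 12296 genes tested was 0.02. In limma's test with Benjamini-Hochberg adjustment over all genes tested, 0 of 35 members passed an adjusted p of 0.05 (the smallest was 0.999), as did 0% of all genes, of which 452 had an unadjusted p under 0.05, 1 of them a member (ANGPTL4). For a single gene in a design of this size, exact permutation (two-sided) cannot give a p below 0.333. In bulk RNA, a lower share of cells that express a gene and less of its RNA per cell cannot be told apart.

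Since the test had few degrees of freedom, the genes whose arrays did not overlap between the groups were counted as well. Among the HIF targets, 1 of 18 was higher on both rhSTIP1 arrays than on either control and 1 of 18 was lower. Among the core enzymes these numbers were 2 and 1 of 17. Over all genes tested, 14% were higher without overlap and 14.9% were lower. With a difference of at least 1.5-fold in addition, 1 of the 35 members was higher (ANGPTL4) and 1 was lower (PFKFB4), against 1.9% higher and 3.79% lower among all genes. The shares of members that were separated were near or under those of all genes. Of the 700 genes separated by at least 1.5-fold, 66.6% were lower with rhSTIP1, and 56.2% of 682 were lower with median centring of the arrays.

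**Figure D1:**
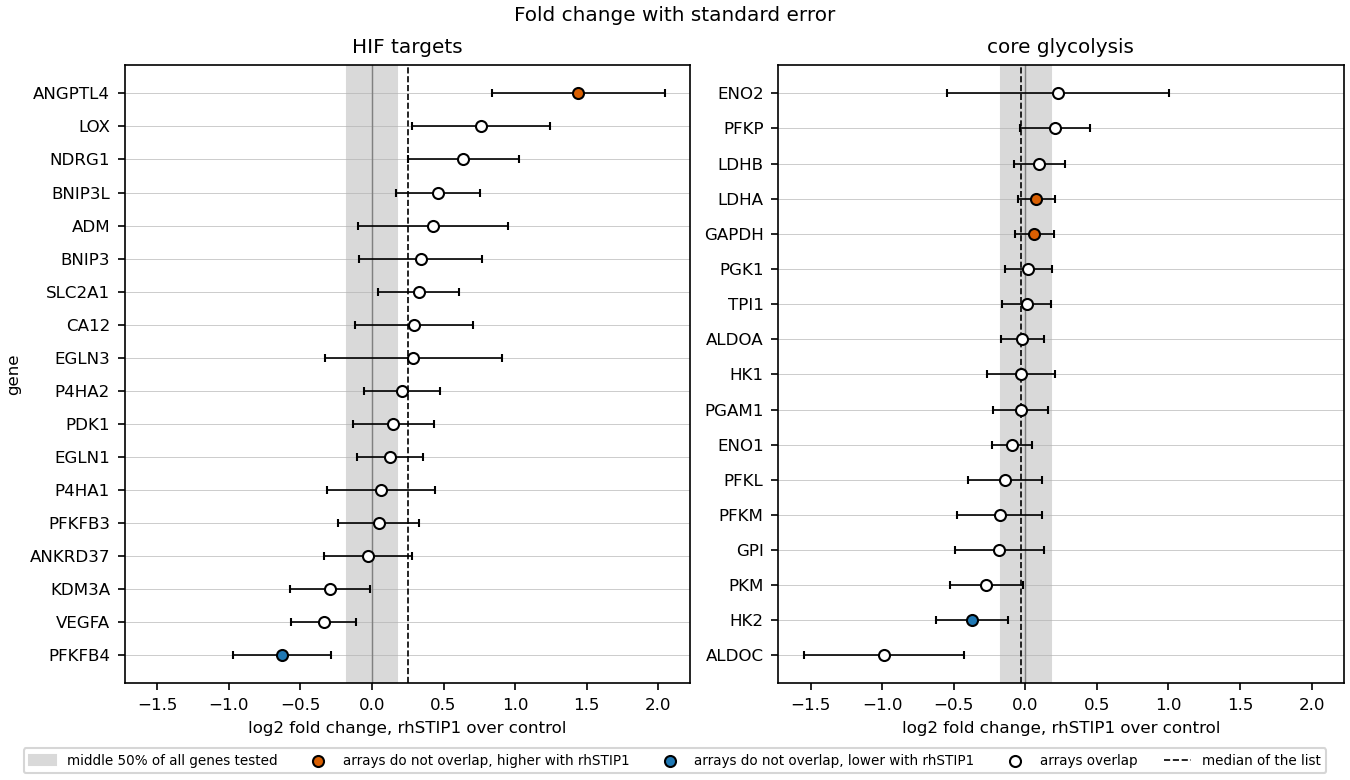
Log2 fold change of each tested member, rhSTIP1 over control, with its standard error from limma (n = 2 arrays in each group), for 18 HIF targets on the left and 17 core enzymes on the right. The grey band holds the middle 50% of all genes tested and the dashed line is the median of the list, 0.25 on the left and −0.03 on the right. ANGPTL4 lies furthest to the right and ALDOC furthest to the left.

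Among the secreted factors, ANGPTL4 had the highest fold change of all members. This angiopoietin-like protein inhibits lipoprotein lipase and acts on vessels. ANGPTL4 had signals of 377 and 1467 on rhSTIP1 arrays 1 and 2, against 185 and 376 on control arrays 1 and 2. Its log2 fold change was 1.44 ± 0.60 (SE), or 2.72-fold, with an unadjusted p of 0.045 in limma and an adjusted p of 0.999. The groups did not overlap, but rhSTIP1 array 1 and control array 2 were nearly level, and rhSTIP1 array 2, the array with the high ACTB ratio, was by far the highest. The part of that ratio in the result was not tested. Without that array the log2 fold change was 0.49, and without rhSTIP1 array 1 it was 2.40. A second probe set of the gene gave 221 and 874 on the rhSTIP1 arrays, against 102 and 136 on the controls, and there the arrays stood clearly apart.

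VEGFA, the main angiogenic growth factor under HIF, lay on the other side. VEGFA had signals of 6827 and 9904 on the rhSTIP1 arrays, against 9817 and 11018 on the controls, a log2 fold change of −0.34 ± 0.23. The brighter rhSTIP1 array just exceeded the dimmer control, so the groups overlapped on this probe set. The gene had 4 probe sets that reached the tested level, and all 4 had a fold change below 0, from −1.002 to −0.338. The arrays did not overlap for 2 of them, both dimmer. One gave 388 and 267 with rhSTIP1, against 487 and 894 in the controls. The other gave 292 and 300 with rhSTIP1, against 410 and 382 in the controls. VEGFA kept its sign under each of the 14 other settings tried, with a range of −0.61 to −0.07 when 1 array was left out.

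ADM encodes adrenomedullin, a vasodilator peptide. It had signals of 951 and 2501 on the rhSTIP1 arrays, against 748 and 1748 on the controls, with a log2 fold change of 0.43 ± 0.52. The 2 arrays of each group differed by more than the groups did.

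Of the genes for acid handling and stress, CA12 is a membrane carbonic anhydrase and NDRG1 a stress-responsive regulator of trafficking and growth. CA12 had signals of 3118 and 6015 on the rhSTIP1 arrays, against 2466 and 5065 on the controls (0.29 ± 0.41). All 5 of its probe sets at the tested level were above 0, from 0.09 to 0.44, and none was separated. NDRG1 had 3133 and 5213 with rhSTIP1, against 1804 and 3726 in the controls (0.64 ± 0.39). Both genes were higher on array 2 than on array 1 of either group, and their groups overlapped.

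BNIP3 and BNIP3L are related receptors that mark mitochondria for mitophagy. BNIP3 had signals of 3114 and 6771 on the rhSTIP1 arrays, against 2580 and 5088 on the controls (0.34 ± 0.43). BNIP3L had 4980 and 6272 on the rhSTIP1 arrays, against 3087 and 5304 on the controls (0.46 ± 0.29). Control array 1 was the lowest of the 4 arrays for both. A dimmer probe set of BNIP3L gave 4390 and 4484 with rhSTIP1, against 3248 and 4338 in the controls, and was just separated.

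Log2 fold changes of the genes for oxygen sensing and chromatin ran from −0.29 to 0.29. EGLN1, the main prolyl hydroxylase that marks HIF for degradation, had signals of 3421 and 4445 on the rhSTIP1 arrays, against 3345 and 3816 on the controls (0.13 ± 0.23). Its 3 probe sets at the tested level ranged from −0.23 to 0.13 and so differed in sign. EGLN3, a hydroxylase strongly induced in hypoxia, was dim, at 88.4 and 159 with rhSTIP1, against 42.1 and 196 in the controls (0.29 ± 0.62). The histone demethylase KDM3A had 1351 and 1556 with rhSTIP1, against 1428 and 2212 in the controls (−0.29 ± 0.28). ANKRD37, an ankyrin repeat protein, had a log2 fold change of −0.03 ± 0.31, which was above 0 with median centring. With the mean of all probe sets it was 0.26. That mean weighs all probe sets of a gene equally, also those under the tested level, such as the second of ANKRD37 (mean signal 13.7). The groups overlapped for all 4 genes on the probe sets used. A dimmer probe set of EGLN1 gave 176 and 234 with rhSTIP1, against 240 and 241 in the controls, and was separated.

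Among the enzymes that modify collagen, LOX stood out by 1 array. LOX, the lysyl oxidase that cross-links collagen, had signals of 2810 and 3157 on the rhSTIP1 arrays, against 975 and 3127 on the controls (0.76 ± 0.48). Control array 1 alone was low, and the other 3 arrays were close together. Without control array 1 the log2 fold change was −0.07, and without control array 2 it was 1.60. The prolyl 4-hydroxylase subunit P4HA1 had 0.06 ± 0.38 and P4HA2 had 0.21 ± 0.27, with overlapping groups on the probe sets used. A dimmer probe set of P4HA2 gave 373 and 367 with rhSTIP1, against 307 and 287 in the controls, and was separated. With the mean of all probe sets the log2 fold change of P4HA2 was −0.0051.

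The last HIF targets govern glucose entry and the fate of pyruvate. SLC2A1, the main glucose transporter of tumour cells, had signals of 1192 and 1185 on the rhSTIP1 arrays, against 750 and 1192 on the controls (0.33 ± 0.28). As for LOX, control array 1 alone was low, and the log2 fold change was −0.0034 without it and 0.79 with the mean of all probe sets. That mean takes in a second probe set under the tested level, at 64.1 and 113 with rhSTIP1, against 29.3 and 24.4 in the controls. PFKFB3 and PFKFB4 make fructose 2,6-bisphosphate, the activator of phosphofructokinase. PFKFB3 had a log2 fold change of 0.05 ± 0.29, with overlapping groups. PFKFB4 had 117 and 83.3 on the rhSTIP1 arrays, against 153 and 172 on the controls, −0.63 ± 0.34 or 1.55-fold lower (unadjusted p = 0.106 in limma). Both rhSTIP1 arrays lay below both controls, at signals not far above the level needed for testing. The difference kept its sign under all 13 other settings in which the gene was tested, from −0.84 to −0.42 when 1 array was left out. It was −0.39, under 1.5-fold, with the mean of all probe sets. PDK1, the kinase that shuts pyruvate out of the mitochondrial cycle, had 0.15 ± 0.28, and its second probe set gave −0.15.

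**Figure D2:**
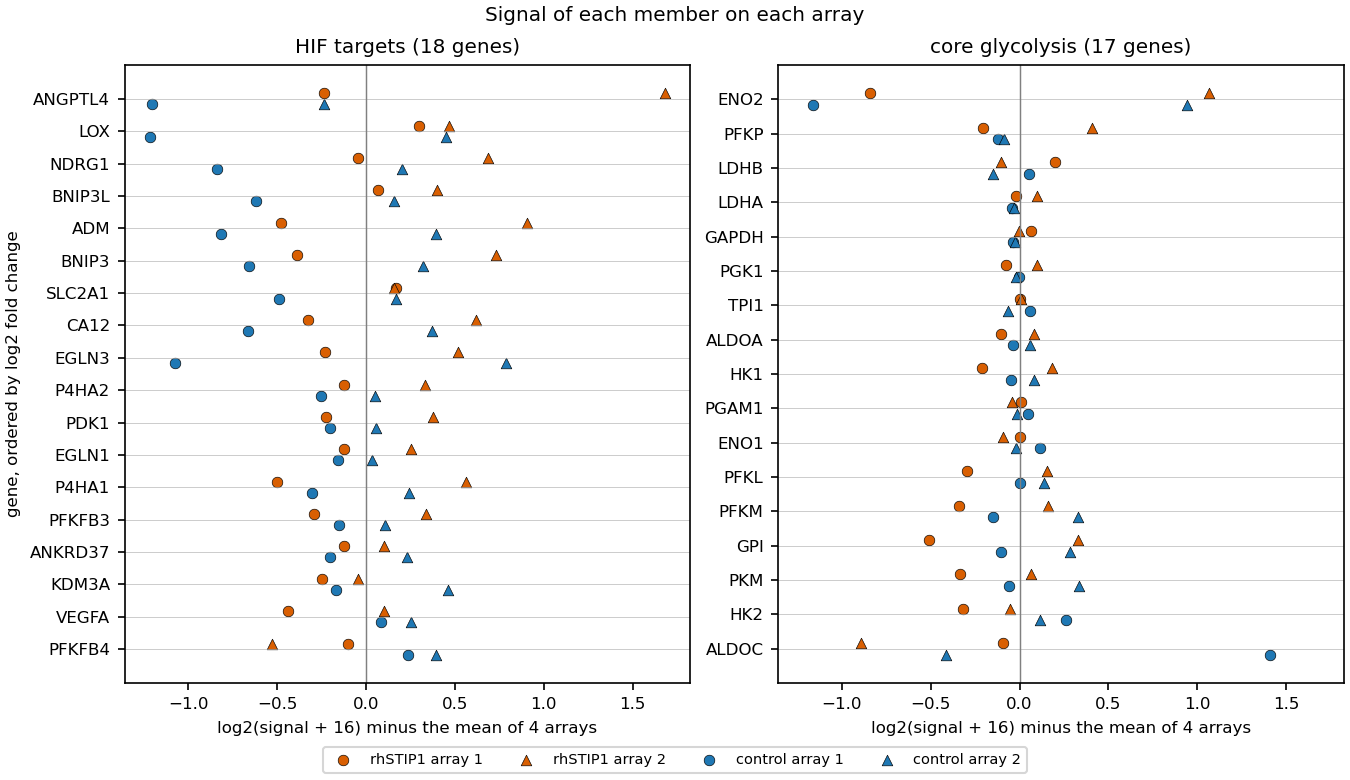
Signal of each tested member on each array as log2(signal + 16) minus the mean of its 4 arrays, for 18 HIF targets and 17 core enzymes. Orange marks rhSTIP1 and blue control, circles array 1 and triangles array 2 of a group. Among the HIF targets rhSTIP1 array 2 is the highest array for 12 genes and control array 1 the lowest for 12, while most core enzymes sit close to 0 on all arrays.

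In upper glycolysis, 7 of 9 enzymes had a fold change below 0 and 2 above, with a median of −0.14. ALDOC, the brain-type aldolase, had the lowest fold change of all members. ALDOC had signals of 1544 and 881 on the rhSTIP1 arrays, against 4407 and 1233 on the controls, −0.99 ± 0.56. The high value of control array 1 made the difference, and the groups overlapped. Without control array 1 the log2 fold change was −0.08, and without control array 2 it was −1.90. The muscle-type aldolase ALDOA, by contrast, had 22785 and 25888 with rhSTIP1, against 23848 and 25530 in the controls (−0.02 ± 0.15).

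The hexokinases catalyse the first step. HK2, the form induced in tumours, had signals of 363 and 440 on the rhSTIP1 arrays, against 551 and 497 on the controls (−0.37 ± 0.25, unadjusted p = 0.177 in limma). Both rhSTIP1 arrays were below both controls, but a dimmer probe set of HK2 gave 70.7 and 134 with rhSTIP1, against 118 and 78.2 in the controls. With the mean of all probe sets, which takes in a probe set under the tested level (mean signal 59.5), the log2 fold change of HK2 was 0.011. HK1, the form found in most tissues, had −0.03 ± 0.24 and was above 0 with median centring. Glucose-6-phosphate isomerase, GPI, had 2856 and 5111 with rhSTIP1, against 3788 and 4965 in the controls (−0.18 ± 0.31).

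Of the phosphofructokinase isoforms, which form the main control point of the chain, PFKP had signals of 5623 and 8610 on the rhSTIP1 arrays, against 5964 and 6103 on the controls (0.21 ± 0.25). PFKL had −0.14 ± 0.26 and PFKM −0.18 ± 0.30, and all 3 overlapped between the groups. Triose phosphate isomerase, TPI1, had 11314 and 11360 with rhSTIP1, against 11751 and 10800 in the controls (0.01 ± 0.17). Its 3 probe sets at the tested level ranged from −0.48 to 0.05 and so differed in sign. The one at 0.05 gave 10047 and 10360 with rhSTIP1, against 10030 and 9623 in the controls, and was just separated.

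In lower glycolysis most genes were flat, and ENO2 varied most between the arrays of a group. GAPDH had signals of 29922 and 28545 on the rhSTIP1 arrays, against 27831 and 28128 on the controls. The groups did not overlap on this probe set, yet the log2 fold change was only 0.06 ± 0.14, it was below 0 with quantile normalization, and its other 2 probe sets gave 0.02 and −0.02. PGK1 (0.02 ± 0.16), PGAM1 (−0.03 ± 0.19) and ENO1 (−0.09 ± 0.14) overlapped between the groups. PKM, pyruvate kinase, had 2475 and 3270 with rhSTIP1, against 3006 and 3947 in the controls (−0.27 ± 0.26), and its second probe set gave 0.21. ENO2, the neuron-type enolase, had 145 and 586 on the rhSTIP1 arrays, against 112 and 536 on the controls (0.22 ± 0.78). Array 2 exceeded array 1 by 3.74-fold with rhSTIP1 and by 4.30-fold in the controls, the widest gap among the members in the controls and, with rhSTIP1, just under the 3.77-fold of ANGPTL4.

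LDHA and LDHB interconvert pyruvate and lactate. LDHA had signals of 35615 and 38721 on the rhSTIP1 arrays, against 35102 and 35337 on the controls (0.08 ± 0.13). The groups did not overlap, the log2 fold change was under 0.1, and it was below 0 with quantile normalization. LDHB had 21912 and 17769 with rhSTIP1, against 19783 and 17185 in the controls (0.10 ± 0.18), and its second probe set gave −0.05.

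The differences were larger among the HIF targets than among the core enzymes, as a description. The fold change was within 1.2-fold in either direction for 6 of 18 HIF targets (33.3%) and for 14 of 17 core enzymes (82.4%), beside 67.3% of all genes tested. The median standard error was 0.33 for the HIF targets and 0.24 for the core enzymes, beside 0.27 for all genes. No test was made between the lists. They were also not matched on signal, the highest mean being 36194 (LDHA) among the core enzymes and 9392 (VEGFA) among the HIF targets. The part of signal level in these shares was not tested. The median of the HIF targets depended on single arrays. Leaving out rhSTIP1 array 1 gave 0.52, with 15 of 18 genes above 0. Leaving out rhSTIP1 array 2, whose ACTB ratio was 8.79, gave −0.15, with 5 of 18 above 0. Leaving out control array 1 gave −0.12 (6 of 18) and leaving out control array 2 gave 0.51 (16 of 18). For the core enzymes the medians in the same order were 0.068, −0.11, −0.072 and 0.013.

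The HIF targets varied widely between the 2 arrays of a group, with a median size of the fold change between groups of 0.31 on the log2 scale. Array 2 was above array 1 in both groups for 16 of 18 HIF targets and for 9 of 17 core enzymes, beside 35.6% of all genes tested. The exceptions among the HIF targets were SLC2A1 and PFKFB4, where array 2 was lower than array 1 with rhSTIP1. The median difference between array 2 and array 1 over the HIF targets was 0.57 with rhSTIP1 and 0.64 in the controls on the log2 scale, against 0.04 and 0.03 over all genes. Over the core enzymes it was 0.18 with rhSTIP1 and 0.015 in the controls. The fold change was smaller than the difference between the 2 arrays in both groups for 11 of 18 HIF targets (61.1%), beside 48.4% of all genes. A gap of at least 2-fold between the arrays of at least 1 group occurred for 8 of 18 HIF targets and for 2 of 17 core enzymes, ENO2 and ALDOC.

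The genes with the widest gaps were drawn from several roles. On the scale of signal + 16, ADM was 2.60-fold higher on array 2 than on array 1 with rhSTIP1 and 2.31-fold in the controls. BNIP3 was 2.17-fold and 1.97-fold higher, CA12 1.92-fold and 2.05-fold, and ANGPTL4 3.77-fold and 1.95-fold. ALDOC went the opposite way, array 1 being 1.74-fold higher than array 2 with rhSTIP1 and 3.54-fold higher in the controls. Across the 35 members, the difference between arrays in the rhSTIP1 group and that in the control group had a Pearson correlation of 0.71 and a Spearman correlation of 0.68, beside 0.36 and 0.37 across all genes tested. These describe genes that share the same 4 arrays and are not independent replicates, and the labels do not say whether arrays of the same number were handled together. The cause of the difference between the arrays was not tested.

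**Figure D3:**
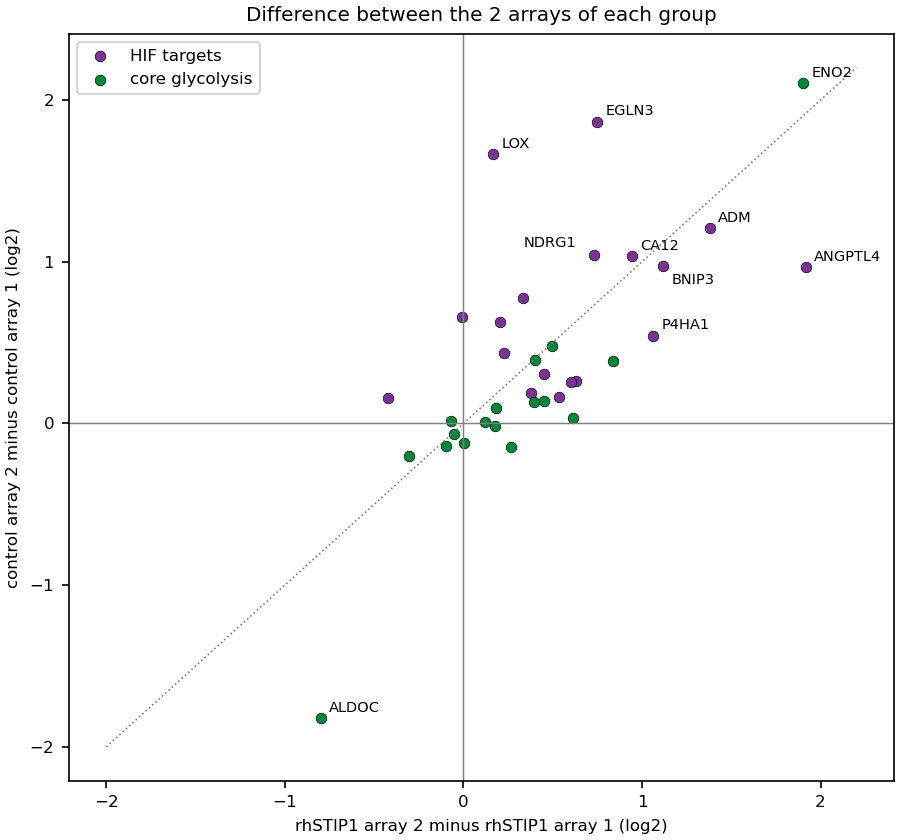
Difference between the 2 arrays of a group on the log2(signal + 16) scale, array 2 minus array 1, in the rhSTIP1 group (horizontal) and in the control group (vertical), 1 point for each of 35 members. The dotted line marks equal differences. Of the HIF targets, 16 of 18 lie above 0 on both axes, ENO2 lies furthest along the line, and ALDOC lies furthest to the lower left.

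Other probe sets of the same genes gave a check on the choice of probe set. The 36 members had 85 probe sets with 1 symbol, 66 of which reached the tested level, and 18 members had more than 1 of these. Their fold changes had the same sign for 9 members and differed in sign for 9. Those with the same sign were ANGPTL4, BNIP3, BNIP3L, CA12, LOX, P4HA2 and VEGFA of the HIF targets and ALDOA and PFKL of the core enzymes. In ENO1 the brightest probe set gave −0.09, while a second one gave 21815 and 3596 on the rhSTIP1 arrays, against 21688 and 16076 on the controls. That single low value was on rhSTIP1 array 2, the array whose ACTB ratio was 8.79, and its part in the difference was not tested.

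**Figure D4:**
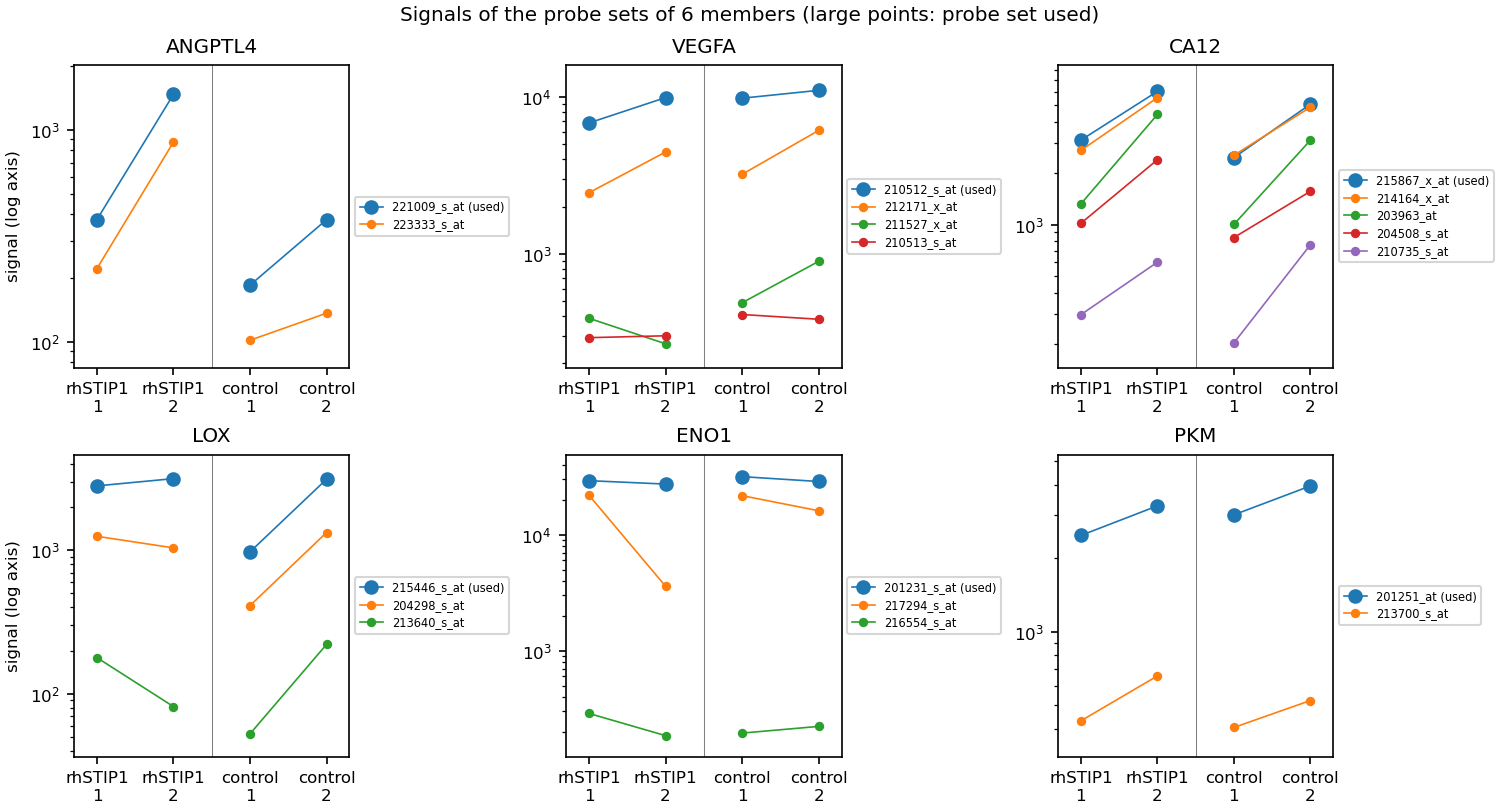
Signals on a logarithmic axis of all probe sets at the tested level for 6 members, on rhSTIP1 arrays 1 and 2 and control arrays 1 and 2. Large points are the probe set used for the gene, and lines join the arrays of a group. The probe sets of CA12 are all higher on array 2 than on array 1 of each group, those of VEGFA all have a fold change below 0, and 1 probe set of ENO1 drops on rhSTIP1 array 2.

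The regulators of HIF itself were described from a list of 20 genes, 17 of them tested. Of these, 10 were above 0 and 7 below (median 0.04), and 0 passed limma's adjusted test. Without overlap 2 of the 17 were higher and 4 lower, beside 14% and 14.9% of all genes. CITED2 competes with HIF for the coactivator p300 and is itself induced by HIF. It had signals of 1020 and 782 on the rhSTIP1 arrays, against 1856 and 2186 on the controls, −1.16 ± 0.25 (unadjusted p = 0.0021, adjusted p = 0.702 in limma). Both rhSTIP1 arrays lay well under both controls, and it was the 1 regulator separated by 1.5-fold. With the mean of all probe sets of a gene its log2 fold change was −0.72. EPAS1, the second HIF alpha subunit, had 6851 and 6582 with rhSTIP1, against 2440 and 7065 in the controls (0.69 ± 0.44), with control array 1 alone low as for LOX and SLC2A1. LIMD1, a scaffold for the hydroxylases and VHL, had 0.38 ± 0.27, and SIAH1, a ubiquitin ligase that acts on EGLN proteins, had −0.32 ± 0.23, both without overlap. LIMD1 was below 0, at −0.22, with the mean of all probe sets.

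Of 40 other known HIF targets outside the 37 members, 37 were tested, 20 of them above 0 and 17 below (median 0.04). Without overlap and by 1.5-fold or more, 1 was higher and 3 were lower, beside 1.9% and 3.79% of all genes. HMOX1, which breaks down heme and also answers to NRF2, had 855 and 1329 with rhSTIP1, against 135 and 361 in the controls (2.18 ± 0.44). DDIT4, an inhibitor of mTORC1, had 5610 and 1986 with rhSTIP1, against 14491 and 12260 in the controls (−1.99 ± 0.43). The transcription factor NFIL3 had 1794 and 2273 with rhSTIP1, against 3354 and 5804 in the controls (−1.12 ± 0.31). ERRFI1, a feedback inhibitor of the EGF receptor, had 1374 and 3619 with rhSTIP1, against 4927 and 4162 in the controls (−1.02 ± 0.42). None of the 4 passed limma's test over all genes (adjusted p from 0.702 to 0.999).

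Genes that steer pyruvate and lactate numbered 17, of which 14 were tested, 4 above 0 and 10 below (median −0.12). PDK4 and PDP1 act in opposite directions on pyruvate dehydrogenase, PDK4 as a kinase that inactivates it and PDP1 as a phosphatase that activates it. PDK4 had signals of 625 and 1121 on the rhSTIP1 arrays, against 210 and 389 on the controls, 1.498 ± 0.385 or 2.82-fold (unadjusted p = 0.0051, adjusted p = 0.702 in limma). With the mean of all probe sets the log2 fold change of PDK4 was 0.73. PDP1 had 2165 and 3088 with rhSTIP1, against 3514 and 3735 in the controls (−0.48 ± 0.25). The arrays did not overlap for either gene, PDK4 being higher with rhSTIP1 and PDP1 lower. PDK2, another kinase of the complex and named here after its values were seen, was also separated, at 267.2 and 266.6 with rhSTIP1, against 302.1 and 310.4 in the controls (−0.19 ± 0.26). Of the 14 tested genes, 1 was thus higher and 2 were lower without overlap, beside 14% and 14.9% of all genes. PDK3 had 0.42 ± 0.32 and the monocarboxylate transporter SLC16A7 0.31 ± 0.30, both with overlapping groups. Of 16 isozymes of glycolysis outside the members, 6 were tested and 0 were separated. The 4 with the smallest p were BPGM (0.29 ± 0.28), PFKFB2 (0.20 ± 0.31), LDHC (−0.12 ± 0.36) and ADPGK (0.07 ± 0.25).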

How the data were processed

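The table deposited by the authors holds linear intensities per probe set, for which the submitters' processing notes name MAS5 and version 1.1 of Affymetrix Expression Console. MAS5 summarises each array alone and scales it to a common target. The table used here carries no detection calls. Precision is limited by having 2 arrays in each group.

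Of 54675 probe sets, 62 were controls, the platform annotation gave 41091 a single symbol, 1801 several and 11721 none. The identifiers of 41037 were found in the RefSeq gene table, which changed 0 symbols. Each gene took its probe set with the highest mean, and 12296 genes with a mean of at least 69.4 were tested.

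The rhSTIP1 arrays were compared with the controls on log2(signal + 16) with limma 3.58.1 (R 4.3.3), using lmFit and then eBayes with its trend option. Tests were two-sided and p-values were adjusted by Benjamini-Hochberg over the 12296 genes. Residual degrees of freedom were 2 per gene, and the prior supplied 5.56 more. Fold changes are on that scale, which shrinks those of dim genes, and ± is the standard error. The script was checked on simulated data. Tables and figures used Python 3.11.15.

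Named genes were all 37 members and, of each other list, the 4 tested genes with the smallest unadjusted p. The members and lists were chosen with earlier results of these data known. Alternatives covered pseudocounts of 1 and 64, the filter, the scaling, the mean of probe sets, other eBayes options, a block for the replicate number and leaving out each array. The mean of probe sets weighs every probe set of a gene equally, also those under the tested level.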

Additional observations from a re-analysis of the deposited data

How the results depend on the processing

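The 14 other settings gave 487 values for the 35 tested members, of which 16 moved by more than 1 SD between replicates. Leaving out an array cannot move a fold change by more than this SD, which pools both groups. The filters, the block and the eBayes options leave the fold changes as they are. The 16 can thus come only from the pseudocounts, the scaling and the mean of probe sets, and the count is no measure of stability. Of the 35 members, 8 kept their sign under every setting in which they were tested. Outside the settings that left out an array, the HIF targets had a median from 0.18 to 0.29 and the core enzymes one from −0.089 under quantile normalization to 0.010 under median centring. With 1 array left out, the medians ran from −0.15 to 0.52 for the HIF targets and from −0.11 to 0.068 for the core enzymes. The numbers separated by at least 1.5-fold then ran from 1 to 9 HIF targets, from 0 to 2 core enzymes, from 7 to 17 of the other pathway genes (6 with all arrays) and from 1062 to 1979 of all genes (700 with all arrays). The lone array of a group is then assumed to vary like the other group, and fewer values need to stand apart. The number of genes called ran from 0 to 6.

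With no filter 2087 genes and 10 other pathway genes were separated, while the 70th percentile as filter left 424 genes and 1 HIF target separated and 1 gene called, PFKFB4 not being tested there. With a pseudocount of 64, 1 HIF target was separated, PFKFB4 no longer reaching 1.5-fold. With the mean of all probe sets the 2 separated HIF targets were ANGPTL4 and SLC2A1, the latter with its second probe set under the tested level. Robust eBayes called 2 genes. With the replicate number of the titles as a replicate block, 247 genes were called, against 0 without it. They included ANGPTL4 (adjusted p = 0.0030), ALDOC (adjusted p = 0.0196), CITED2 (adjusted p = 0.0031), PDK4 (adjusted p = 7.6e-04), HMOX1 (adjusted p = 3.0e-05), DDIT4 (adjusted p = 2.2e-05), NFIL3 (adjusted p = 0.0012) and ERRFI1 (adjusted p = 0.039) in limma's fit, at 1 residual degree of freedom per gene. Over all genes the deviations of same-numbered arrays from their group means had a correlation of 0.36, but the labels give the arrays only a shared number, so the block is not a stated part of the design.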

Other observations

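Genes of neighbouring carbohydrate pathways were also measured. Of 8 genes of the pentose phosphate pathway, which makes NADPH and ribose from glucose 6-phosphate, 7 were tested, 6 with a log2 fold change above 0 and 1 below (median 0.20), and 0 passed limma's adjusted test. With the mean of all probe sets the median was 0.064. RPIA, which interconverts pentose phosphates, had signals of 2667 and 1996 on the rhSTIP1 arrays, against 1701 and 1631 on the controls, a log2 fold change of 0.47 ± 0.25. Transaldolase, TALDO1, had 17125 and 14873 with rhSTIP1, against 13546 and 14308 in the controls (0.20 ± 0.17). Both were higher on each rhSTIP1 array than on either control, by less than 1.5-fold. RPE, named here after its values were seen, was lower without overlap. It had 1964 and 2227 with rhSTIP1, against 2389 and 2368 in the controls (−0.18 ± 0.22). Thus 2 of the 7 were higher and 1 lower without overlap, beside 14% and 14.9% of all genes tested. H6PD (0.42 ± 0.32) and PGD (0.22 ± 0.20) overlapped between the groups, and both were below 0 with the mean of all probe sets (−0.32 and −0.20).

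Of 15 genes of gluconeogenesis and glycogen metabolism, 10 were tested, 6 above 0 and 4 below (median 0.03). UGP2, which makes UDP-glucose for glycogen, had signals of 5047 and 5631 on the rhSTIP1 arrays, against 6209 and 6661 on the controls (−0.27 ± 0.20, and −0.094 with the mean of all probe sets). The mitochondrial phosphoenolpyruvate carboxykinase PCK2 had 1838 and 1295 with rhSTIP1, against 1839 and 1902 in the controls (−0.27 ± 0.26), and rhSTIP1 array 1 was level with control array 1. The glycogen phosphorylase PYGB had 0.11 ± 0.25 and the kinase GSK3B had 0.09 ± 0.23, with overlapping groups.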
